A study of Mus musculus with 30 samples.

Results

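The genes described here are 10 imprinted genes that are read from the paternal chromosome and lie outside the Dlk1-Dio3 cluster: Nnat, Zdbf2, Slc38a4, Peg10, Peg3, Igf2, Mest, Plagl1, Sgce and Snrpn. Each was taken from the probe set that names it and no other gene, and 9 of the 10 had such a probe set, among 19938 genes measured in this way. The probe set of Snrpn also names Snurf, which lies on the same transcript, so Snrpn has no value here. Averaged over all arrays of a labelling, all 9 measured genes lay above the median gene in both kinds of labelling. They ran from the 52.3 percentile for Plagl1 to 97.1 for Mest on the unamplified arrays. The mean of a single group could lie lower.

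Expression was measured on 30 Affymetrix arrays in 10 groups of 3, which the labels call biological replicates. The 18 unamplified arrays hold mouse ES cells and 2 clones of iPS cells, named ST5 and ST8, all of C57BL/6x129SvJae background, at day 0 (undifferentiated, sorted as Sox2bright) and at day 5 of endoderm differentiation in culture (sorted as ckit+/Sox2dim). The 12 amplified arrays, made with the NuGEN Pico and Encore kits, hold ES cells of day 0 and day 5 and 2 populations of Swiss webster embryos at E8.25, foregut endoderm (ENDM1+/Epcam+/SSlo) and a comparison population (Epcam+ and ENDM1 negative). The series asks whether ES and iPS cells form definitive endoderm alike despite differences in imprinted genes. Each iPS group is a single clone, so a difference from ES cells is that of 1 line, and clones are given apart. The embryo samples differ from the cultured cells in mouse strain and RNA kit as well as in origin, and these cannot be told apart.

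An imprinted gene is read from one parental chromosome only, because a mark laid down in the egg or the sperm is kept on one copy after fertilisation. Nnat, Peg3, Mest, Plagl1, Snrpn and the adjoining pair Peg10 and Sgce lie beside regions methylated in the egg, which silences the maternal copy. Igf2 is governed by a region near H19 that is methylated in sperm, and Slc38a4 depends in part on a repressive histone mark of the egg. The marks survive the demethylation of the early embryo with the help of the zinc finger protein ZFP57, which binds the letters TGCCGC when they are methylated, and its partner TRIM28. Reprogramming and long culture of pluripotent cells are known to disturb such marks. The arrays read both parental copies together and carry no allele information, so a level here does not say which copy was read.

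Promoter windows of 250 bases upstream of the start, from RefSeq on GRCm38.p6, were present for 8 of the 10 genes, with 19 windows in all; Peg10 and Sgce are named only. The motif TGCCGC, searched on both strands (its reverse complement is GCGGCA), was found in 2850 of all 32851 windows (8.68%), and 2 or more matches were found in 0.874%. Among the 19 windows of these genes 4 held it: 1 of Zdbf2, 1 of Plagl1 and an overlapping pair of Mest. Windows are shown for the genes whose change with differentiation differed between cell lines in the tests given further on, with the motif in capitals on whichever strand it lies. All are on the plus strand and read 5′ to 3′ toward the start. The Nnat window spans chr2:157559828-157560077, the Zdbf2 windows chr1:63200108-63200357 and chr1:63273019-63273268, the Mest window chr6:30737800-30738049 and the Plagl1 window chr10:13090582-13090831.
Nnat: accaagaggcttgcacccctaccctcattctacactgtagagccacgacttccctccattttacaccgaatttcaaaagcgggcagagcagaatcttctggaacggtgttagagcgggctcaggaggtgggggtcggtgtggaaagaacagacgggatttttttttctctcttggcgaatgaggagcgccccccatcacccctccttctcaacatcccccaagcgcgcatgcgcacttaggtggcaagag
Zdbf2, upstream start: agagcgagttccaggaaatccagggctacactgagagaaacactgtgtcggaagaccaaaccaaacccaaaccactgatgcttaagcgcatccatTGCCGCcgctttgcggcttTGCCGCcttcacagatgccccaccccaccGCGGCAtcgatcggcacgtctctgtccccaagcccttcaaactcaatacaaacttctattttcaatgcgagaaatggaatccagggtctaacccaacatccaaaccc
Zdbf2, downstream start: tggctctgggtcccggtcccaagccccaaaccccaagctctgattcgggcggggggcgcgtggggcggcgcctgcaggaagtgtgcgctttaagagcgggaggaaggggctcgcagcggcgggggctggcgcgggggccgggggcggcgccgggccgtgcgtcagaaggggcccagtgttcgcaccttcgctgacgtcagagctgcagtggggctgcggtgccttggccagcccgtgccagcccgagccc
Mest: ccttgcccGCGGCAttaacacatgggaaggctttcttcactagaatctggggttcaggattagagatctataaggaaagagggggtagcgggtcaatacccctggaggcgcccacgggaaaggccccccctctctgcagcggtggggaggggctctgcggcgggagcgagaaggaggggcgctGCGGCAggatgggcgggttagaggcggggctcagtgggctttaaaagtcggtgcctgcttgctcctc
Plagl1: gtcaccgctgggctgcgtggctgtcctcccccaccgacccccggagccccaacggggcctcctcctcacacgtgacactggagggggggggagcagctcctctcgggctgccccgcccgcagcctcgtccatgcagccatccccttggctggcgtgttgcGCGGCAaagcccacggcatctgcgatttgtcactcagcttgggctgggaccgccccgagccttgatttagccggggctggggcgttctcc

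The upstream Zdbf2 window held 3 matches, at -155, -136 and -107 from the start, the Mest window shown held 2, at -242 and -67, and Plagl1 held 1, at -90. No match lay in the Nnat window or in the downstream Zdbf2 window, nor in a further Mest window at chr6:30733256-30733505 with 7 CpG dinucleotides that is not shown, which says only that these letters are not in these stretches. The windows of Nnat, the upstream Zdbf2 start, Mest and Plagl1 had 12, 13, 14 and 19 CpG dinucleotides and the downstream Zdbf2 window had 26, against a median of 6 over all windows. A match is a description of the letters and no measure of binding.

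On the unamplified arrays the mean marker levels of the sorted cells followed their labels. The 5 pluripotency markers averaged 9.78 to 10.23 log2 units on the unamplified day 0 arrays and 6.20 to 7.79 at day 5, and the 5 definitive endoderm markers 5.54 to 6.85 and 8.61 to 10.05. At day 5, 3 to 4 of the 5 pluripotency markers still lay above the array median. A pair of unamplified day 5 arrays stood apart from their replicates: ES replicate 1 and ST8 replicate 2 had endoderm marker means of 10.05 each, as did the 3 ST5 arrays at 9.92 to 10.01, while the other ES and ST8 arrays lay at 8.61 to 8.71. On the amplified arrays ES day 5 replicate 1 stood apart in the same way, at 9.57 against 8.53 and 8.57. Where leaving out any of these 3 arrays changed a call, this is stated. Other results include them. All 12 fibroblast markers were measured, and their mean was higher at day 0 (7.47 to 7.97, 11 to 12 of them above the array median) than at day 5 (5.27 to 5.86). On the 3 foregut arrays Nkx2-1, a marker of part of the foregut, read 5.12 to 5.35, below the array median, while the 7 foregut markers together averaged 8.11 to 8.19. The same 7 averaged 6.80 to 7.02 on the ENDM1 negative arrays, where 6 of them lay above the array median, as in foregut.

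Differentiation was accompanied by higher levels of most of the genes. From day 0 to day 5, 6 of 9 rose and 1 fell in ES cells, 8 rose and 1 fell in ST5, and 6 rose and 2 fell in ST8. Of all genes, 18.9% were called higher and 19.7% lower in ES cells, 23.2% and 24.8% in ST5, and 21% and 19.5% in ST8. The median difference of the 9 genes was 1.41, 1.53 and 0.97 log2 units, beside 0.02, -0.04 and -0.01 over all genes. A gene is called here when limma's adjusted p over all 19938 genes is under 0.05, and ± after a difference is its standard error.

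**Figure D1:**
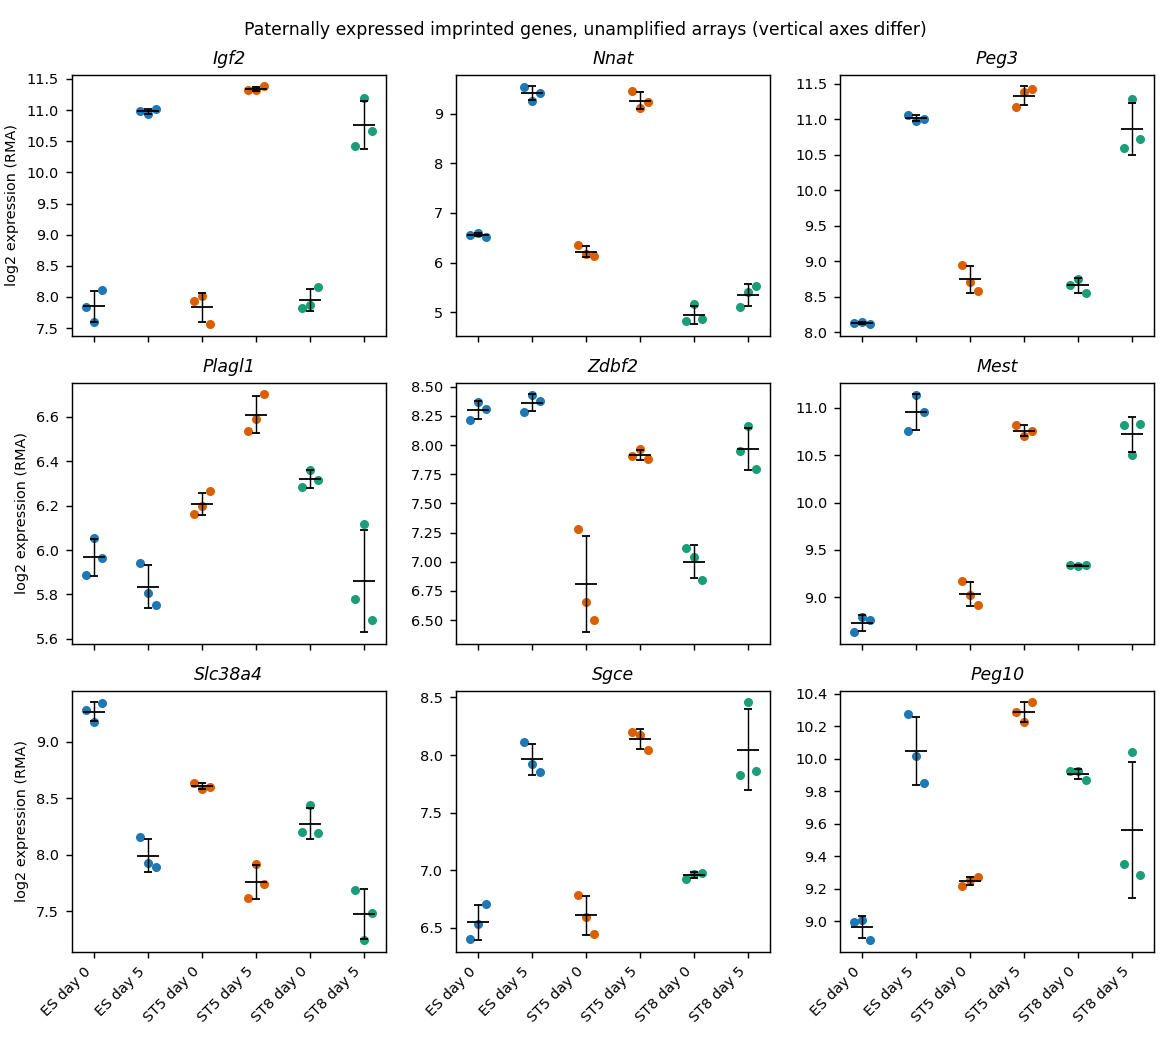
Log2 expression of the 9 measured genes on the 18 unamplified arrays, by cell line and day; each point is an array and the bar and whiskers are the mean and SD of 3 replicates, with a separate vertical axis for each gene. Igf2, Peg3, Mest and Sgce lay higher at day 5 than at day 0 in every line without overlap, and Nnat did so in ES cells and ST5 while the ST8 arrays lay between 4.82 and 5.54.

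Igf2, a fetal growth factor that signals through the IGF1 and insulin receptors, read 7.84, 7.60 and 8.11 log2 units on the ES day 0 arrays and 10.98, 10.94 and 11.01 at day 5. ST5 read 7.93, 8.01 and 7.57 at day 0 and 11.32, 11.32 and 11.38 at day 5, and ST8 7.83, 7.87 and 8.16 and then 10.42, 11.19 and 10.67. The day 0 and day 5 arrays did not overlap in any line. The rise was 3.13 ± 0.17 in ES cells (8.74-fold, limma adjusted p = 4.98e-10), 3.50 ± 0.17 in ST5 (11.35-fold, 9.03e-11) and 2.81 ± 0.17 in ST8 (7.01-fold, 1.56e-09). At day 0 the 3 lines overlapped. At day 5 the ST5 arrays lay above the ES arrays, and ES cells and ST8 overlapped. The ST5 minus ES difference was not called (0.36 ± 0.17, limma adjusted p = 0.122), but passed with the groups of the contrast alone (0.0165).

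Peg3, a zinc finger protein, followed Igf2. Its ES arrays read 8.14, 8.15 and 8.12 at day 0 and 11.06, 10.98 and 11.01 at day 5. The ST5 arrays read 8.95, 8.71 and 8.58 and then 11.18, 11.39 and 11.42, and the ST8 arrays 8.67, 8.76 and 8.55 and then 10.59, 11.28 and 10.72. All day 5 arrays lay above all day 0 arrays. The rises were 2.88 ± 0.14, 2.58 ± 0.14 and 2.20 ± 0.14 in ES cells, ST5 and ST8 (limma adjusted p = 1.41e-10, 3.79e-10 and 3.1e-09). ST8 replicate 2, the array with high endoderm markers, was the highest of its group for both Igf2 and Peg3.

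Mest encodes a protein of the alpha/beta hydrolase fold and is expressed in embryonic mesoderm. It read 8.64, 8.79 and 8.76 in ES cells at day 0 and 10.76, 11.14 and 10.96 at day 5. In ST5 the values were 9.17, 9.03 and 8.91 and then 10.82, 10.70 and 10.76, and in ST8 9.34, 9.33 and 9.34 and then 10.82, 10.50 and 10.83. The arrays of the lines did not overlap at day 0, with ST8 above ST5 and ST5 above ES cells, and overlapped at day 5. Of the day 0 differences that of ST8 and ES cells was called (0.60 ± 0.10, limma adjusted p = 0.00278). ST5 minus ES (0.31 ± 0.10, 0.141) and ST8 minus ST5 (0.30 ± 0.10, 0.451) were not. The rises were 2.22 ± 0.10, 1.72 ± 0.10 and 1.38 ± 0.10 (limma adjusted p = 8.52e-11, 1.23e-09 and 1.87e-08). The rise in ST8 was smaller than that in ES cells by 0.84 ± 0.14 (limma adjusted p of the difference = 0.00934). For ST5 against ES cells the difference in rise was -0.50 ± 0.14 and narrowly missed the threshold (0.0521). It passed with the groups of the contrast alone (0.0423), after quantile normalization (0.0407), with dim genes left out (0.0319) and with a robust trended spread (0.0344), and also without ES day 5 replicate 1 (-0.60, 0.00944) or ST5 day 0 replicate 3 (-0.56, 0.0494).

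Sgce encodes epsilon-sarcoglycan, a membrane protein, and shares a promoter region with Peg10. It read 6.41, 6.54 and 6.71 in ES cells at day 0 and 8.11, 7.93 and 7.85 at day 5. In ST5 it read 6.78, 6.59 and 6.45 and then 8.20, 8.17 and 8.04, and in ST8 6.93, 6.97 and 6.97 and then 7.83, 8.46 and 7.86. The days did not overlap in any line, and the 3 lines overlapped at day 5. The rises were 1.41 ± 0.14, 1.53 ± 0.14 and 1.09 ± 0.14 (limma adjusted p = 5.27e-07, 1.3e-07 and 7.69e-06).

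Nnat, which encodes the small membrane protein neuronatin, set ST8 apart. ES arrays read 6.56, 6.59 and 6.52 at day 0 and 9.55, 9.26 and 9.42 at day 5, and ST5 arrays 6.35, 6.17 and 6.14 and then 9.45, 9.11 and 9.24. ST8 arrays read 4.82, 5.15 and 4.87 at day 0 and 5.11, 5.40 and 5.54 at day 5. Every ST8 array of either day lay below every ES and ST5 array, and the ST8 days overlapped. The ST8 means of 4.95 and 5.35 were dim, below the 5.96 of the median gene on the unamplified arrays. The rise was 2.85 ± 0.12 in ES cells (7.225-fold, limma adjusted p = 2.56e-11) and 3.05 ± 0.12 in ST5 (8.28-fold, 9.69e-12), and 0.40 ± 0.12 in ST8 (1.32-fold, 0.0121). The small ST8 rise was no longer called without ST8 day 5 replicate 3 (0.31, adjusted p = 0.0684) or without ST8 day 0 replicate 1 (0.34, 0.0612) or 3 (0.36, 0.0504).

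The difference in rise was tested directly. It was -2.45 ± 0.17 log2 units for ST8 against ES cells (limma adjusted p = 8.04e-07) and -2.65 ± 0.17 for ST8 against ST5 (7.63e-07), while ST5 and ES cells differed by 0.20 ± 0.17 (0.499). At day 5 ST8 differed from ES cells by -4.07 ± 0.12 (16.7-fold lower, 2.44e-12) and from ST5 by -3.92 ± 0.12 (15.1-fold lower, 8.62e-12). On ST8 replicate 2, whose endoderm markers were as high as those of ST5, Nnat read 5.40. The part of the endoderm level in the Nnat difference was not tested. Blcap, the gene in whose intron Nnat lies, was picked out after its values were seen. Its means in ST8 were 7.87 at day 0 and 8.13 at day 5, beside 7.80 and 7.93 in ES cells, and at day 5 it differed between them by 0.20 ± 0.10 (0.333).

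**Figure D2:**
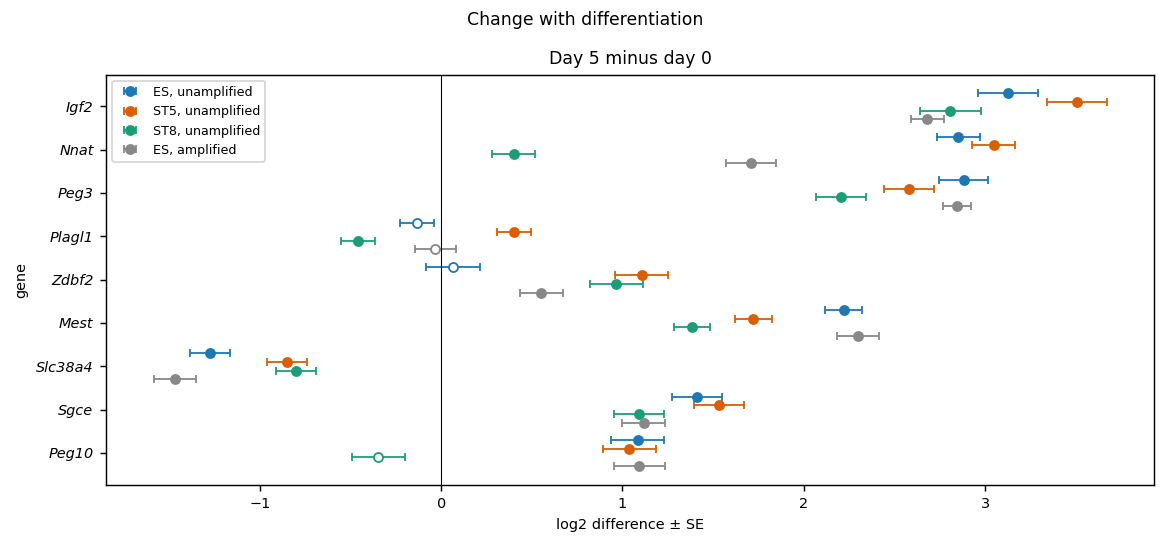
Day 5 minus day 0 in log2 units with its standard error for the 9 genes in ES cells, ST5 and ST8 on unamplified arrays and in ES cells on amplified arrays; filled points passed limma's adjusted p of 0.05. Nnat in ST8 lies at 0.40 beside 2.85 and 3.05 in the other lines, and Peg10 in ST8 lies below 0 at -0.35.

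Peg10, a gene derived from a retrotransposon and needed in the placenta, also took another course in ST8. It read 8.99, 9.01 and 8.89 in ES cells at day 0 and 10.27, 10.02 and 9.85 at day 5, and 9.22, 9.25 and 9.27 and then 10.29, 10.23 and 10.35 in ST5. In ST8 it already read 9.92, 9.93 and 9.87 at day 0, and then 9.35, 10.04 and 9.28. It rose by 1.08 ± 0.15 in ES cells and 1.04 ± 0.15 in ST5 (limma adjusted p = 1.66e-05 and 1.56e-05). ST8 differed between the days by -0.35 ± 0.15 (0.0709), with overlapping arrays. Its change differed by -1.43 ± 0.21 from that of ES cells (0.00233) and by -1.38 ± 0.21 from that of ST5 (0.00734).

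The ST8 day 5 arrays disagreed among themselves for Peg10: replicate 2, with high endoderm markers, read 10.04 and the others 9.35 and 9.28. Without replicate 2 the ST8 change was -0.59 (limma adjusted p = 8.46e-05), and the ST8 minus ES difference at day 5 was -0.73 (0.000307) where the full groups gave -0.49 ± 0.15 (0.126). With ES replicate 1 left out as well, ST8 minus ES at day 5 was -0.62 (0.000136). On the 5 arrays with high endoderm markers Peg10 read 10.04 to 10.35, and on the other ES arrays 10.02 and 9.85. The plot of the day 5 arrays shows these values against the endoderm markers. The part of the endoderm level in the Peg10 difference was not tested.

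**Figure D3:**
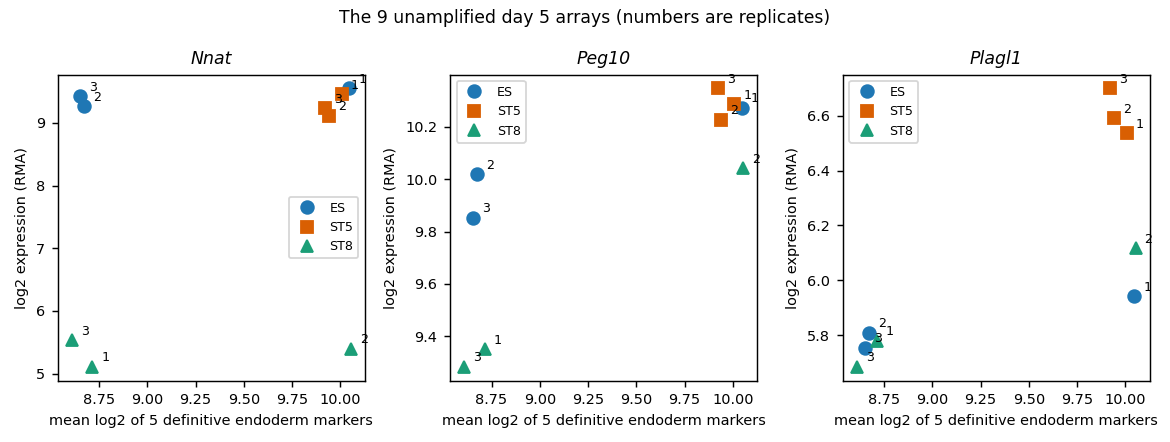
Log2 expression of Nnat, Peg10 and Plagl1 on each of the 9 unamplified day 5 arrays against the mean of 5 definitive endoderm markers on the same array, with replicate numbers beside the points. ES replicate 1 and ST8 replicate 2 lie to the right with the ST5 arrays; Nnat is low on all 3 ST8 arrays, and Peg10 on ST8 replicates 1 and 3.

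Slc38a4, a transporter of neutral amino acids, fell in every line. ES arrays read 9.28, 9.18 and 9.34 at day 0 and 8.16, 7.93 and 7.89 at day 5, ST5 arrays 8.64, 8.58 and 8.60 and then 7.62, 7.92 and 7.74, and ST8 arrays 8.20, 8.44 and 8.19 and then 7.69, 7.25 and 7.48. The 3 lines did not overlap at day 0, with ES cells highest and ST8 lowest, though ST8 minus ST5 was not called (-0.33 ± 0.11, limma adjusted p = 0.433). The changes were -1.27 ± 0.11, -0.85 ± 0.11 and -0.80 ± 0.11 (limma adjusted p = 1.41e-07, 6.59e-06 and 1.82e-05). The differences between these changes were not called with all arrays. Without ES day 5 replicate 1 the change in ST5 was smaller than in ES cells by 0.51 (0.0395), and without ST8 day 5 replicate 2 that in ST8 was smaller by 0.59 (0.0358).

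Zdbf2, a gene with a DBF-type zinc finger, started from different levels and ended closer together. ES arrays read 8.21, 8.37 and 8.31 at day 0 and 8.29, 8.43 and 8.38 at day 5. ST5 read 7.28, 6.66 and 6.50 and then 7.91, 7.96 and 7.88, and ST8 7.12, 7.04 and 6.85 and then 7.95, 8.16 and 7.80. All day 0 arrays of the clones lay below all ES arrays. On the ES arrays the change was 0.06 ± 0.15 (limma adjusted p = 0.787), while Zdbf2 rose by 1.10 ± 0.15 in ST5 (9.1e-06) and 0.97 ± 0.15 in ST8 (5.39e-05). The rise in ST5 exceeded the change in ES cells by 1.04 ± 0.21 (0.0115), and for ST8 the difference was 0.90 ± 0.21 and narrowly missed it (0.0563). The ST8 difference passed with all 30 arrays in 1 fit (0.0241), with the groups of the contrast alone (0.0231), with a common median (0.0483), with dim genes left out (0.0394), with a robust trended spread (0.0480) and without ST8 day 5 replicate 2 (0.81, 0.0491).

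Plagl1, a zinc finger transcription factor, moved little and in different directions. ES arrays read 5.89, 6.05 and 5.96 at day 0 and 5.94, 5.81 and 5.75 at day 5, a difference of -0.13 ± 0.09 (limma adjusted p = 0.305). ST5 arrays read 6.16, 6.20 and 6.26 and then 6.54, 6.59 and 6.70, and ST8 arrays 6.28, 6.36 and 6.31 and then 5.78, 6.12 and 5.68. Plagl1 rose by 0.40 ± 0.09 in ST5 (0.0017) and changed by -0.46 ± 0.09 in ST8 (0.000732), without overlap of the days in either clone. The changes of the clones, ST8 minus ST5, differed by -0.86 ± 0.13 (0.00846). ST5 against ES cells differed by 0.53 ± 0.13 (0.0293), a call that was lost without any one of ES day 5 replicates 2 and 3, ES day 0 replicates 2 and 3, ST5 day 0 replicates 1 and 2, and ST5 day 5 replicates 2 and 3, at adjusted p from 0.0525 to 0.0848. ST8 against ES cells gave -0.33 ± 0.13 (0.357), which was called without ST8 day 5 replicate 2 (-0.46, 0.0233).

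Over the 9 genes, 2 of the changes with differentiation differed between ST5 and ES cells, both larger in ST5 (Plagl1 and Zdbf2), where 5.58% of all genes differed in either direction. Against ES cells ST8 differed for 3 (Mest, Nnat and Peg10), all lower, against 0.838% of all genes. Against ST5 it differed for 3 (Nnat, Peg10 and Plagl1), all lower, against 2.17%. The pairs share their ES or clone arrays, so these counts are not independent of each other. The number called depended on ST8 day 5 replicate 2. Without that array ST8 differed from ES cells for 7 genes, which added Peg3 (-0.89), Plagl1 (-0.46), Slc38a4 (0.59) and Zdbf2 (0.81), and from ST5 for 6, which added Igf2 (-0.91), Peg3 (-0.59) and Sgce (-0.64). Without ES day 5 replicate 1, 4 genes differed between ST5 and ES cells, with Mest (-0.60) and Slc38a4 (0.51) added. The shares of all genes above come from the fit with all arrays. The counts with an array left out have no such share beside them, so they are not read as particular to these genes.

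The fibroblast markers changed with differentiation as well. Of 12 measured, 11 fell in each line from day 0 to day 5, with median differences of -2.10 for ES cells, -2.66 for ST5 and -2.85 for ST8, and the range of their mean level is given above. All 5 pluripotency markers fell and all 5 definitive endoderm markers rose in each line. The part of these cell populations in the changes of the imprinted genes was not tested, and in bulk samples fewer cells of a type cannot be told apart from less RNA per cell.

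At day 0 the clones already differed from ES cells. ST5 was higher for 1 gene and lower for 2, beside 1.39% and 1.84% of all genes, and ST8 was higher for 4 and lower for 3, beside 1.87% and 1.68%. The medians of the 9 genes were 0.06 and 0.35, and those of all genes were 0.00 and -0.02. Both comparisons use the same 3 ES arrays. In ST5 Zdbf2 was lower by 2.803-fold (-1.49 ± 0.15, limma adjusted p = 1.74e-05) and Slc38a4 by 1.58-fold (-0.66 ± 0.11, 0.00266), and Peg3 was higher by 0.61 ± 0.14 (0.0218). In ST8 the lower genes were Nnat (-1.61 ± 0.12, 3.055-fold, 5.54e-07), Zdbf2 (-1.30 ± 0.15, 2.46-fold, 5.83e-05) and Slc38a4 (-0.99 ± 0.11, 1.99-fold, 4.53e-05).

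The genes that were higher in ST8 at day 0 were Peg10 (0.94 ± 0.15, 1.92-fold, limma adjusted p = 0.00133), Mest (0.60 ± 0.10, 0.00278), Peg3 (0.52 ± 0.14, 0.0468) and Plagl1 (0.35 ± 0.09, 0.0482). The arrays of both lines did not overlap for any of these 4. The calls for Peg3 and Plagl1 were lost without any one of the 6 arrays compared, at adjusted p from 0.0784 to 0.155 and from 0.0713 to 0.177. They were also lost when the arrays were shifted to a common median (0.067 and 0.0751), and Plagl1 after a further quantile normalization (0.0655). The Peg3 call in ST5 was lost without any one of the 6 arrays except ST5 day 0 replicate 3, at 0.0616 to 0.103. Igf2 was not called in either clone, at -0.01 ± 0.17 and 0.10 ± 0.17. The definitive endoderm markers were also higher in the clones at day 0, with means of 6.18 to 6.85 in ST5 and 6.47 to 6.69 in ST8 against 5.54 to 5.65 in ES cells, and 2 of 5 were called higher in each clone (medians 0.90 and 1.08). Of the pluripotency markers 1 of 5 pluripotency markers was called lower in each. The part of these markers in the day 0 differences was not tested.

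**Figure D4:**
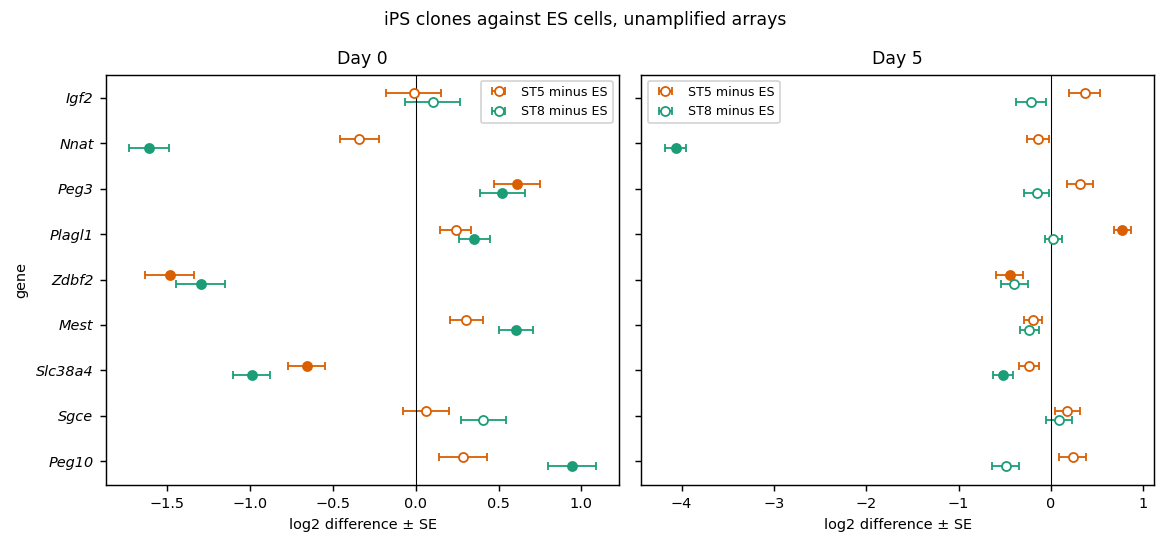
Difference of each iPS clone from ES cells in log2 units with its standard error, at day 0 (left) and day 5 (right) on unamplified arrays, with different horizontal scales; filled points passed limma's adjusted p of 0.05. At day 0 Zdbf2 and Slc38a4 lie left of 0 in both clones and Nnat is at -1.61 in ST8 and -0.34 in ST5, and at day 5 Nnat in ST8 lies at -4.07.

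Between the clones at day 0 Nnat was the single gene of the 9 that was called (-1.27 ± 0.12, 2.41-fold lower in ST8, limma adjusted p = 0.000222). Of all genes 0.0502% were higher and 0.015% lower in ST8. Peg10, at 0.66 ± 0.15, missed the threshold (0.159), although the clones did not overlap. The Zdbf2 and Slc38a4 differences between the clones were 0.19 ± 0.15 (0.819) and -0.33 ± 0.11 (0.433).

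At day 5 ST5 was higher than ES cells for 1 gene and lower for 1, beside 11.6% and 11.8% of all genes, with a median of 0.18 against -0.04. Plagl1 was higher by 0.77 ± 0.09 (1.71-fold, limma adjusted p = 0.000136) and Zdbf2 was lower (-0.45 ± 0.15, 0.0391). The Zdbf2 call was lost without ES day 5 replicate 2 or 3 or without any one of the 3 ST5 arrays, at 0.072 to 0.122. ES day 5 replicate 1 moved a call the other way, since without it Mest also passed (-0.29, 0.0393). Of the visceral endoderm markers 4 of 6 were higher in ST5 (means of 6.26 to 6.50 against 5.19 to 5.52), of the foregut markers 3 of 7 were higher (8.17 to 8.20 against 6.93 to 8.14), of the definitive endoderm markers 1 of 5 was higher, and of the fibroblast markers 6 of 12 were lower (5.27 to 5.39 against 5.41 to 5.86). Their part in the Plagl1 and Zdbf2 differences was not tested.

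ST8 was higher than ES cells at day 5 for none of the 9 genes and lower for 2, beside 0.396% and 0.562% of all genes. The median was -0.23 against -0.01. Beside Nnat, Slc38a4 was lower by 1.43-fold (-0.52 ± 0.11, limma adjusted p = 0.0347), without overlap. That call was lost without ES replicate 2 (0.078) or 3 (0.0655) or ST8 replicate 3 (0.0845). Without ST8 replicate 2, 4 genes were called, which added Peg10 (-0.73, 0.000307) and Peg3 (-0.36, 0.0469). The share of all genes called without ST8 replicate 2 is not given here. Without both ES replicate 1 and ST8 replicate 2 the Slc38a4 difference was -0.32 (0.0681). Igf2, Mest, Sgce and Plagl1 lay at -0.22, -0.23, 0.09 and 0.03, with overlapping arrays.

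ST8 was lower than ST5 at day 5 for 5 genes and higher for none, beside 6.3% and 8.29% of all genes. The median was -0.47, and -0.005 over all genes. Nnat, given above, was joined by Plagl1 (-0.75 ± 0.09, 1.68-fold, limma adjusted p = 0.000336), Peg10 (-0.73 ± 0.15, 1.655-fold, 0.00606), Igf2 (-0.58 ± 0.17, 1.495-fold, 0.0301) and Peg3 (-0.47 ± 0.14, 1.38-fold, 0.0343). Peg3 overlapped through ST8 replicate 2. The Igf2 call was lost without ST8 replicate 1 (0.162) or 3 (0.132) or any one ST5 array (0.071 to 0.0875), and the Peg3 call without ST8 replicate 1 (0.178) or 3 (0.166) or ST5 replicate 2 (0.0994) or 3 (0.114). Without ST8 replicate 2 Sgce was called as well (-0.30, 0.0425). When the spread came from these 6 arrays alone, all of these calls but that of Nnat were lost, at 0.0851 to 0.191. The endoderm markers stood at 9.92 to 10.01 in the ST5 arrays and at 8.71, 10.05 and 8.61 in the ST8 arrays, and their part in these differences was not tested.

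The amplified arrays hold the ES comparison with another labelling. Whether the same RNA or cultures were used is not stated, but replicate 1 of day 5 had the highest endoderm markers, Slc38a4 and Peg10 and the lowest Mest of its group in both labellings, so they are not taken as an independent repeat. On them 7 of the 9 genes were higher at day 5 and 1 was lower, beside 13% and 13.8% of all genes, with a median of 1.12 against -0.02. Peg3 rose by 2.85 ± 0.08 (limma adjusted p = 2.17e-10), Igf2 by 2.68 ± 0.09 (8.44e-10), Mest by 2.30 ± 0.12 (1.68e-08), Sgce by 1.12 ± 0.12 (1.77e-05) and Peg10 by 1.09 ± 0.14 (7.26e-05). Slc38a4 changed by -1.47 ± 0.12 (1.26e-06). All 6 were also called on the unamplified ES arrays, in the same directions. Nnat rose from 7.06, 6.91 and 7.03 to 8.94, 8.52 and 8.65, by 1.71 ± 0.14 (1.41e-06), where the unamplified arrays gave 2.85. Zdbf2 read 9.22, 9.39 and 9.21 and then 9.78, 9.88 and 9.83, a rise of 0.55 ± 0.12 (0.00387) that the unamplified arrays did not show (0.06 ± 0.15). Differences between the labellings were not tested.

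**Figure D5:**
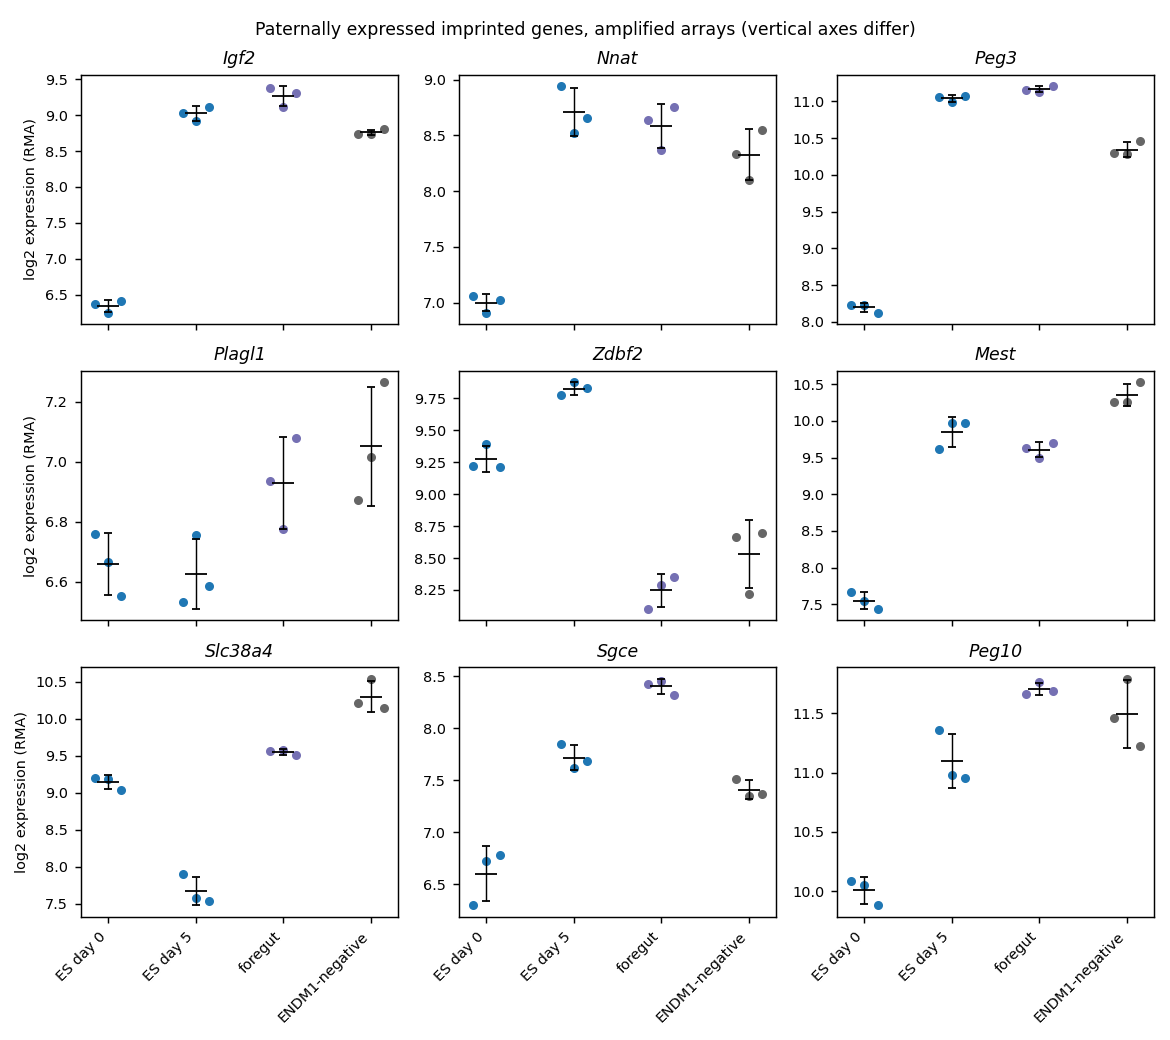
Log2 expression of the 9 measured genes on the 12 amplified arrays of ES cells at day 0 and day 5 and of E8.25 foregut endoderm and the ENDM1 negative population; points are arrays, and bar and whiskers are the mean and SD of 3, with a separate vertical axis for each gene. Slc38a4 is lowest in day 5 ES cells and highest in the ENDM1 negative cells, and Zdbf2 is lower in both embryo populations than in ES cells.

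In the embryo, foregut endoderm was set against the comparison population. Foregut was higher for 3 genes and lower for 2, beside 3.71% and 4.43% of all genes, and the median was 0.21 against 0.01. Sgce read 8.43, 8.46 and 8.32 in foregut and 7.52, 7.35 and 7.37 in ENDM1 negative cells, and was higher by 0.99 ± 0.12 (1.99-fold, limma adjusted p = 0.000288). Peg3 read 11.15, 11.13 and 11.21 against 10.29, 10.28 and 10.45 and was higher by 0.82 ± 0.08 (3.3e-05). Igf2 read 9.38, 9.12 and 9.31 against 8.74, 8.74 and 8.80 and was higher by 0.51 ± 0.09 (0.00366). None of these arrays overlapped between the populations.

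Mest and Slc38a4 ran the other way. Mest read 9.63, 9.49 and 9.70 in foregut and 10.26, 10.26 and 10.53 in ENDM1 negative cells (-0.74 ± 0.12, limma adjusted p = 0.00187), and Slc38a4 9.57, 9.58 and 9.51 against 10.21, 10.54 and 10.15 (-0.74 ± 0.12, 0.00192). Both were free of overlap. Peg10 read 11.66, 11.77 and 11.69 in foregut and 11.46, 11.79 and 11.22 in ENDM1 negative cells, which overlapped (0.21 ± 0.14, 0.411). Nnat, Plagl1 and Zdbf2 also overlapped, and Zdbf2 (-0.28 ± 0.12, 0.186) was called when ENDM1 negative replicate 2 was left out (-0.44, 0.0248).

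Markers of other cell types differed between these populations too. The 6 measured visceral endoderm markers averaged 7.80 to 9.36 in foregut and 5.67 to 6.55 in ENDM1 negative cells, with all 6 and 2 to 4 of them above the array median. The 5 endothelial markers averaged 5.04 to 5.21 and 6.36 to 6.88, with none and 4 above the array median, and the 5 trophoblast markers 5.46 to 5.62 and 6.43 to 7.14, with 1 to 2 and 5 above it. The 3 blood markers averaged 7.27 to 7.59 and 6.58 to 7.18. Their part in the differences of the imprinted genes was not tested.

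Set against day 5 ES cells on the same labelling, foregut was higher for 3 genes and lower for 1, beside 14.7% and 9.42% of all genes, with a median of 0.25 against 0.08. The 1 of 9 that was lower lay near its share. ENDM1 negative cells were higher for 3 and lower for 3, beside 16.5% and 9.76%, with -0.27 against 0.06. Both comparisons use the same ES arrays. Slc38a4 read 7.90, 7.58 and 7.54 in the ES cells and was higher by 1.88 ± 0.12 in foregut (3.68-fold, limma adjusted p = 5.42e-07) and by 2.63 ± 0.12 in ENDM1 negative cells (6.17-fold, 3.01e-08). Zdbf2 read 8.10, 8.29 and 8.35 in foregut and 8.67, 8.22 and 8.70 in ENDM1 negative cells, and was lower than in ES cells by 2.99-fold (-1.58 ± 0.12, 2.28e-06) and 2.46-fold (-1.30 ± 0.12, 1.01e-05). The embryo arrays of both genes lay outside the range of the ES day 5 arrays. Blood markers averaged 5.09 to 5.44 and visceral endoderm markers 5.78 to 6.22 in these ES cells, lower than in foregut as given above, and all 6 visceral endoderm markers were called higher in foregut. Of the definitive endoderm markers 3 of 5 were called lower in foregut (means of 7.63 to 8.03 against 8.53 to 9.57). Of the 7 foregut markers 2 were called higher and 2 lower. In ENDM1 negative cells all 5 endothelial markers (6.36 to 6.88 against 4.62 to 4.71, median difference 2.13) and all 5 trophoblast markers (6.43 to 7.14 against 5.08 to 5.09, median difference 1.70) were higher, and 4 of 5 definitive endoderm markers were lower. ES day 5 replicate 1 is the amplified array with high endoderm markers. The part of these cell types in the differences was not tested.

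In foregut Sgce (0.68 ± 0.12, limma adjusted p = 0.0014) and Peg10 (0.61 ± 0.14, 0.00743) were also higher than in day 5 ES cells. Igf2, Mest, Nnat and Peg3 lay within 0.25 log2 units of the ES cells and were not called. Igf2 and Plagl1 passed without foregut replicate 2 (0.32, 0.0244, and 0.38, 0.0457), and Mest without ES day 5 replicate 1 (-0.36, 0.0302). In ENDM1 negative cells Mest (0.50 ± 0.12, 0.0063) and Plagl1 (0.42 ± 0.11, 0.015) were higher, and Peg3 (-0.70 ± 0.08, 3.1e-05) and Igf2 (-0.27 ± 0.09, 0.0433) were lower. The Igf2 call was lost without ES day 5 replicate 1 or 3 or any one ENDM1 negative array (0.0677 to 0.151), and the Plagl1 call without ENDM1 negative replicate 3 (0.0663). Nnat and Peg10, at -0.38 ± 0.14 (0.0597) and 0.39 ± 0.14 (0.055), passed without ENDM1 negative replicate 3 (0.0282 and 0.0165), Nnat also without ES replicate 2 (0.0405) and Peg10 without ES replicate 1 (0.0131).

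Other paternally expressed genes were taken from a list. Of 22 listed 14 were measured, and from day 0 to day 5 7 rose and 2 fell in ES cells, 7 and 2 in ST5, and 6 and 1 in ST8, with medians of 0.30, 0.38 and 0.24. Of all genes 38.6%, 47.9% and 40.5% were called in either direction in these comparisons, with the split given above. Necdin (Ndn), a growth suppressor, rose by 1.30 ± 0.12 in ES cells (limma adjusted p = 2.03e-07). Magel2, its neighbour, rose by 1.32 ± 0.11 in ST5 and 0.95 ± 0.11 in ST8. Airn, the RNA that silences Igf2r on the paternal copy, rose by 1.80 ± 0.47 in ES cells, while ST5 gave a rise of 4.19 ± 0.47 and ST8 one of 2.24 ± 0.47. It overlaps Igf2r on the other strand. Sfmbt2, a Polycomb gene of the placenta, fell in all 3 lines, with changes of -3.26, -3.55 and -2.97 (SE 0.11 each). At day 0 none of the 14 was called between either clone and ES cells. Of all genes 3.22% were called in either direction for ST5 and 3.55% for ST8, so none among 14 lies near these shares.

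Of 27 listed genes next to the members 23 were measured; 11 rose and 5 fell in ES cells, 10 and 7 in ST5, and 7 and 5 in ST8, with medians of 0.26, 0.29 and -0.02. Of all genes 38.6%, 47.9% and 40.5% were called in either direction in these comparisons. The share called in ST8, 12 of 23, lay near the 40.5%. Asb4, which lies near Sgce and Peg10, rose by 3.43 ± 0.23, 2.81 ± 0.23 and 2.56 ± 0.23, and Zim1, beside Peg3 and read from the maternal copy, by 2.21 ± 0.11, 2.09 ± 0.11 and 1.66 ± 0.11. Adam23, near Zdbf2, changed by -2.50, -3.58 and -3.02 (SE 0.25 each). At day 0, 2 of the 23 were higher in ST8 than in ES cells, beside 1.87% of all genes. They were Ppp1r9a (0.61 ± 0.09, limma adjusted p = 0.000794) and Cep41 (0.43 ± 0.10, 0.0199). In the embryo 5 were higher in foregut and 1 lower, beside 3.71% and 4.43% of all genes. Zim1 stood at 2.06 ± 0.16, Phactr2 at 0.99 ± 0.13 and Ascl2 at -0.68 ± 0.15.

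Ppp1r9a, a cytoskeletal gene of the Peg10 and Sgce cluster, was high at day 0 in ST8 like Peg10. Its means were 6.81 at day 0 and 7.39 at day 5 in ES cells, 6.90 and 7.70 in ST5, and 7.43 and 7.34 in ST8. Its change differed in ST8 from ES cells by -0.67 ± 0.13 (limma adjusted p = 0.0181) and from ST5 by -0.89 ± 0.13 (0.00565). Casd1, in the same cluster, rose by 1.54 ± 0.11 in ES cells and 1.31 ± 0.11 in ST8, and Sgce rose in both as given above.

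Genes of IGF2 action were measured for 15 of 17 listed. From day 0 to day 5, 8 rose and 2 fell in ES cells, 6 and 2 in ST5, and 8 and 2 in ST8, with medians of 0.57, 0.12 and 0.53. Of all genes 38.6%, 47.9% and 40.5% were called in either direction in these comparisons. In ST5 the 8 of 15 called lay near the 47.9%. Igfbp5, a binding protein of the growth factor, rose by 3.97 ± 0.24, 4.92 ± 0.24 and 3.98 ± 0.24, and Grb10, an imprinted adaptor that damps receptor signalling, by 2.22 ± 0.15, 2.64 ± 0.15 and 1.91 ± 0.15. Igfbp4 changed by -0.53, -0.89 and -0.90 (SE 0.18 each). Igf2r, the receptor that clears IGF2, rose by 0.77 ± 0.15 in ES cells, and the rises in ST5 and ST8 were 1.41 ± 0.15 and 0.53 ± 0.15. In the embryo 4 were higher in foregut and 1 lower, beside 3.71% and 4.43% of all genes. Igfbp5 stood at 1.14 ± 0.22, Grb10 at 0.67 ± 0.15 and Igf1 at -1.20 ± 0.16.

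All 14 listed genes that keep or erase imprints were measured. From day 0 to day 5 2 rose and 9 fell in ES cells, 2 and 8 in ST5, and 2 and 9 in ST8, with medians of -0.45, -0.39 and -0.42. Of all genes 18.9%, 23.2% and 21% rose and 19.7%, 24.8% and 19.5% fell in these comparisons. Dnmt3l, a cofactor of DNA methylation, changed by -5.33, -5.05 and -5.27 (SE 0.15 each), and Dppa3, which shields maternal marks in the zygote, by -3.14, -4.04 and -3.84 (SE 0.11 each). Tet3, which oxidises methylated cytosine, rose by 1.42, 2.10 and 1.33 (SE 0.15 each). At day 0 Dppa3 was higher in both clones than in ES cells (0.62 ± 0.11 for ST5 and 0.55 ± 0.11 for ST8) and Tet2 was lower (-0.75 ± 0.12 and -0.50 ± 0.12). Zfp57 was higher in ST8 by 0.37 ± 0.07 (limma adjusted p = 0.00471), with means of 11.07 against 10.70, and Trim28 was higher by 0.24 ± 0.05 in each clone.

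Across the 18 unamplified arrays some of the genes ran closely together. Pearson's r was 0.985 for Igf2 and Peg3, 0.973 for Peg3 and Sgce, 0.972 for Igf2 and Sgce, 0.966 for Mest and Peg3 and 0.959 for Igf2 and Mest, and it was 0.747 for the neighbours Peg10 and Sgce and -0.873 for Slc38a4 and Sgce. These arrays share lines, days and sorts, and the values are descriptions. The genes outside the group with the highest r were Car14 (0.996) and Epb41l3 (0.993) for Igf2, Egflam (0.995) and Emb (0.995) for Peg3, Olfml2a (0.985) and Marchf6 (0.984) for Mest, and Tmem198b (0.991) and Lmbrd1 (0.988) for Sgce. For Nnat they were Gpr137 (0.933) and Nlrp5 (0.908), for Slc38a4 Ppil1 (0.955) and Stard8 (0.939), and for Zdbf2 Repin1 (0.914) and Adi1 (0.911). Peg10 was most like Ppp1r9a (0.928) and Stmn1 (0.896), and Plagl1 most like Hnrnpm (0.945) and Epc2 (0.917).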

How the data were processed

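The deposited values are log2 expression values made by the authors; RMA is the method that the submitters' processing notes name. Its version, and whether the labellings were processed together, are not given in the sources used here. Of 35556 probe sets 21789 name 1 gene by the platform annotation and 1621 name several; the rest and the latter were left out. The probe set with the highest mean over the arrays stood for a gene, which left 19938 genes. The 18 unamplified and 12 amplified arrays were fitted apart with limma 3.58.1 (lmFit and eBayes, two-sided) in R 4.3.3, with 12 and 8 residual degrees of freedom, Benjamini-Hochberg adjustment over all genes and a threshold of 0.05, in 16 contrasts. No array was dropped. The code was tested on simulated data. The number of arrays limits the precision.

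Members and gene lists were chosen with earlier results of these data known. The lists hold other paternally expressed genes, neighbours of the members, IGF2 action, imprint keeping and erasure, and cell type markers. Named genes are all members, at most the 2 largest called rises and falls of a list in a contrast, and the 2 genes most like each member by Pearson's r; Blcap, Casd1 and Igf2r were added after their values were seen. Alternatives were all arrays in 1 fit, the groups of a contrast alone, quantile normalization, a common median, a filter on dim genes, averaging the probe sets of a gene, a robust trended spread, a replicate block, a smallest log2 difference of 1, and omission of single replicates. Same-numbered replicates were not taken to deviate together, since no contrast had all 3 correlations above 0.1. Single correlations were larger. ST8 minus ES at day 5 had -0.554, -0.648 and 0.505, and replicate 2 of ST5 minus ES at day 0 had 0.326. ST5 minus ES at day 5 had 0.164, 0.087 and 0.122. Promoter windows come from RefSeq, GRCm38.p6.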

Additional observations from a re-analysis of the deposited data

Results flagged for a closer look

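For 5 genes the change from day 0 to day 5 differed between cell lines by limma's test of the difference. Nnat rose less in ST8 than in ES cells (-2.45) and than in ST5 (-2.65). Peg10 changed by -1.43 relative to ES cells and by -1.38 relative to ST5. Mest rose less in ST8 than in ES cells (-0.84). The Plagl1 change in ST5 differed from that in ES cells by 0.53, and that in ST8 from that in ST5 by -0.86, a change of -0.46 in ST8 set against a rise of 0.40 in ST5. Zdbf2 rose more in ST5 than in ES cells (1.04). All values are log2 differences between changes.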

How the results depend on the processing

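No gene changed direction among those called, and over the combinations of gene, contrast and alternative 2219 kept their side of the threshold, 104 lost a call and 71 gained one. Counts are members called of 9. They are given without the share of all genes called under the same alternative. By these counts a change in the members cannot be told apart from one in all genes. With all 30 arrays in 1 fit the ST8 minus ES response gave 5, not 3. With the spread of the compared groups alone, ST8 minus ST5 at day 0 gave 2 (from 1), ST5 minus ES at day 5 gave 4 (from 2), ST8 minus ES at day 5 gave 1 (from 2) and ST8 minus ST5 at day 5 gave 1 (from 5). A replicate block, which the numbers do not justify, gave 1 for ST8 minus ES at day 5 (from 2) and moved no other count by over 1.5 times; it lost Peg3 and Plagl1 in ST8 minus ES at day 0 and Slc38a4 at day 5 (adjusted p = 0.0518, 0.0539 and 0.0502), and gained Igf2 in foregut minus ES and Nnat and Peg10 in ENDM1 negative minus ES. A smallest log2 difference of 1 left 4 of 8 for the ST8 change, 1 of 3 and 2 of 7 for ST5 and ST8 minus ES at day 0, 0 of 2, 1 of 2 and 1 of 5 for ST5 minus ES, ST8 minus ES and ST8 minus ST5 at day 5, 1 of 2 for the ST5 minus ES response, 0 of 5 for foregut minus ENDM1 negative, and 2 of 4 and 2 of 6 for foregut and ENDM1 negative minus ES. Leaving out 1 replicate gave 1 to 4 for ST8 minus ES, 3 to 6 for ST8 minus ST5 and 1 to 3 for ST5 minus ES at day 5, and 1 to 4, 3 to 7 and 3 to 6 for the responses ST5 minus ES, ST8 minus ES and ST8 minus ST5. Leaving out ES day 5 replicate 1 and ST8 day 5 replicate 2 together, chosen after seeing the data, gave 6 for ST5 minus ES at day 5 and 4, 6 and 6 for these responses. Causes were not tested.

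Scaling moved the split of all genes called higher and lower: ST8 minus ES at day 0 had 372 and 335, 359 and 560 after quantile normalization and 268 and 475 with a common median. ST8 minus ST5 at day 0 had 10 and 3, then 8 and 6, and 5 and 4. ST5 minus ES at day 5 had 2303 and 2350, then 1938 and 3235 after quantile normalization, and foregut minus ES 2939 and 1878, then 4240 and 1709. The ST5 minus ES response had 657 and 455, then 581 and 754, that of ST8 minus ST5 210 and 222, then 454 and 248 and with a common median 342 and 119, and that of ST8 minus ES 66 and 101, then 103 and 86 with a common median. Plagl1, at percentile 52.3 of all genes by its mean over the unamplified arrays, is the dimmest of the 9 there.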
